A study of Mus musculus with 10 samples.

Results

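The IL-23, IL-17 and IL-22 axis was followed through the genes Il23a, Il12b, Il23r, Il17a, Il17f, Il17ra, Il22, Il22ra1 and Il22ra2, a list of 9 matched to probe sets by gene symbol. Of these, 8 had a named probe set, with 1 probe set each, among 19505 genes, and Il12b, which codes for the p40 chain that IL-23 shares with IL-12, was not analysed here. The study profiled total RNA of complete colon from wildtype C57BL/6 mice on 10 single-colour arrays. The mice behind the 5 ECP samples had drunk water with 3% dextran sulfate sodium (DSS, which injures the colon lining), had been given anti-PD1, a checkpoint-blocking antibody, intraperitoneally, and had been transplanted with cells of a donor after ECP. The abbreviation usually means extracorporeal photopheresis, a therapy that sensitises leukocytes to ultraviolet light and irradiates them before infusion. The 5 control samples came from mice with DSS and anti-PD1 colitis but without transplanted cells. Both groups therefore carried colitis, no array of uninflamed colon was analysed here, and the labels leave unsaid whether the arrays stand for different mice. All levels are log2 RMA intensities, all differences are ECP minus control on that scale, and errors are SD (n = 5) unless stated.

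IL-23 is a cytokine of activated macrophages and dendritic cells made of the p19 chain, encoded by Il23a, and p40. Through its receptor it sustains the lymphocytes (T helper, gamma delta T and innate lymphoid cells) that make IL-17A, IL-17F and IL-22. IL-17A and IL-17F act through a receptor containing IL-17RA and induce neutrophil-attracting chemokines and antimicrobial proteins, while IL-22 acts on epithelium through IL-22RA1 with IL-10RB and drives antimicrobial lectins and repair. Blocking IL-23 is used to treat inflammatory bowel disease, while IL-17 also has barrier-protecting roles in the gut.

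Mouse Il22 lies beside a second copy, Iltifb, also named Il22b. A stretch near the start of each gene is shown as an example of likeness between the copies. Probe sequences were not compared, so it does not show whether the copies share them. The stretch is the best-matching ungapped run of the promoter windows of the copies, taken from RefSeq on GRCm38.p6, so its identity is not that of the whole windows. Capitals mark the bases that differ, 4 of 102, so that 96.1% were identical. The Il22 stretch is chr10:118204885-118204986 on the plus strand and the Iltifb stretch is chr10:118294994-118295095 on the minus strand. The Il22 stretch lies inside the annotated gene, which starts at 118204584, while the Iltifb stretch spans the annotated gene start at 118295038.
Il22: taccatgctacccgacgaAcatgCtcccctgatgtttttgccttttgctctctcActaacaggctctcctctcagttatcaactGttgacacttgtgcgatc
Iltifb: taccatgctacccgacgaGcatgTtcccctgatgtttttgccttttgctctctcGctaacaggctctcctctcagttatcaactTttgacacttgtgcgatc
The array has a probe set for each copy. Whether RNA of one copy binds the probes of the other was not tested, so the Il22 values below are uncertain as to the copy.

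No gene of the axis differed between ECP and control colon past the threshold. By limma with Benjamini-Hochberg adjustment over all genes, 0 of 8 passed an adjusted p of 0.05, against 0% of all 19505 genes, and the smallest adjusted p among the 8 was 0.951, for Il23a. At an unadjusted p under 0.05, 1 of 8 (Il23a, higher in the ECP arrays) was reached, beside 5.08% of all genes (2.31% higher and 2.77% lower). Of the 8 genes, 5 lay higher in the ECP arrays, beside 53.3% of all genes, with a median difference of 0.15 against 0.01 over all genes. This median was 0.07 without ECP replicate 1, and -0.02 over the 5 genes that remained when the lowest 25% of all genes were left out. ECP and control arrays overlapped for all 8 genes, and over all genes 1.22% did not overlap. Taking the 95% intervals of limma for single genes, the 8 differences lay between 0.78-fold and 1.52-fold, and 7 of the 8 intervals included no difference.

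Il23a, the gene of the IL-23 p19 chain, had the largest difference of the 8. Its level was 4.82, 4.55, 4.75, 4.88 and 4.80 in ECP replicates 1 to 5, against 4.94, 4.58, 4.26, 4.21 and 4.27 in control replicates 1 to 5. The 5 ECP arrays lay close together, whereas the controls fell into a high array (replicate 1, above every ECP array), an array within the ECP range (replicate 2) and 3 arrays below it. The difference was 0.31 (SE 0.13), or 1.24-fold with a 95% interval of 1.01 to 1.52 (limma adjusted p = 0.951). An exact permutation test over all splits of the arrays into groups of 5 gave p = 0.0873 (two-sided, smallest possible 0.00794). Leaving out control replicate 1 moved the difference to 0.43, its highest, and leaving out control replicate 4 moved it to 0.25, its lowest, with adjusted p-values of 0.383 and above in all alternatives. Markers of monocytes, macrophages and dendritic cells, the cells known to make IL-23, had levels of 7.28 to 7.84 in the ECP arrays and 7.10 to 7.77 in the controls (11 of 12 measured), so that the groups overlapped. Control replicate 1, the array with the highest Il23a level, was the lowest of all 10 in these markers. In whole tissue, fewer cells of a type and less RNA per cell cannot be told apart.

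Il23r, the receptor chain specific to IL-23, was at 4.71, 4.60, 4.40, 4.28 and 4.32 in ECP replicates 1 to 5 and at 4.52, 4.20, 4.35, 4.48 and 4.08 in control replicates 1 to 5. The highest values were ECP replicates 1 and 2 and the lowest was control replicate 5, with 3 of the 5 controls inside the ECP range. Its difference was 0.13 (SE 0.11, limma adjusted p = 0.998; exact permutation p = 0.302). It was 0.07 without control replicate 5 and also without ECP replicate 1, and 0.26 with the acinar level (the mean of pancreatic acinar markers, described below) as a covariate. Transcripts of eye, tooth and testis that are not known from colon had mean levels from 3.96 for Pde6b to 6.83 for Prm2, and the means over all 10 arrays of the axis genes other than Il17ra and Il22ra1 lay in that span. Levels of different probe sets cannot be ordered and no detection calls were analysed, so whether these genes were above background was not tested.

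Il17a codes for the founding cytokine of the IL-17 family. It was at 6.80, 7.10, 6.71, 6.82 and 6.99 in ECP replicates 1 to 5, against 6.82, 6.65, 6.71, 6.81 and 6.47 in control replicates 1 to 5. ECP replicates 2 and 5 exceeded every control, control replicates 2 and 5 lay below every ECP array, and the other arrays lay between these. This gave a difference of 0.19 (SE 0.09), or 1.14-fold with a 95% interval of 0.990 to 1.31 (limma adjusted p = 0.996; exact permutation p = 0.111). The difference was 0.13 without control replicate 5, 0.14 without ECP replicate 2 and 0.23 without ECP replicate 3. With the acinar level as a covariate it was 0.27.

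Il17f, the neighbouring gene on chromosome 1 and the closest relative of Il17a, did not run higher in the ECP arrays. Its level was 5.89, 6.11, 6.05, 6.12 and 6.23 in ECP replicates 1 to 5 and 6.51, 5.98, 5.98, 6.21 and 5.87 in control replicates 1 to 5. Control replicate 1 was the highest array and control replicate 5 the lowest. The difference of -0.03 (SE 0.12, limma adjusted p = 1.00) turned to 0.07 without control replicate 1 and to 0.02 without ECP replicate 1. Control replicate 1 also had a pancreatic acinar marker level of 11.0, against 5.43 to 5.66 in the ECP arrays. Control replicate 4 had the highest acinar level (12.7), and its Il17f level lay inside the ECP range. Across the 10 arrays Il17f had r = 0.60 and rho = -0.07 with the acinar markers. The part of that material in the Il17f value of control replicate 1 was not tested.

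Il17ra, the receptor chain used by IL-17A and IL-17F, is known to be made by epithelial, stromal and myeloid cells. It was at 7.56, 7.60, 7.70, 7.77 and 7.33 in ECP replicates 1 to 5, and at 7.34, 7.43, 7.60, 8.24 and 7.42 in control replicates 1 to 5. Control replicate 4 stood above all other arrays, and the other 4 controls lay within the ECP range. With all arrays the difference was -0.02 (SE 0.16, limma adjusted p = 1.00), and it turned to 0.14 without control replicate 4 and to 0.05 without ECP replicate 5. Control replicate 4 was also the highest array in markers of T cells (7.35, others 6.04 to 6.58), B cells (8.56, others 5.96 to 7.06), neutrophils (7.51, others 5.76 to 6.60) and pancreatic acinar cells (12.7, others 5.43 to 11.0). It was the lowest in epithelial markers (11.9, others 12.1 to 12.2). The part of these in the Il17ra value was not tested.

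**Figure D1:**
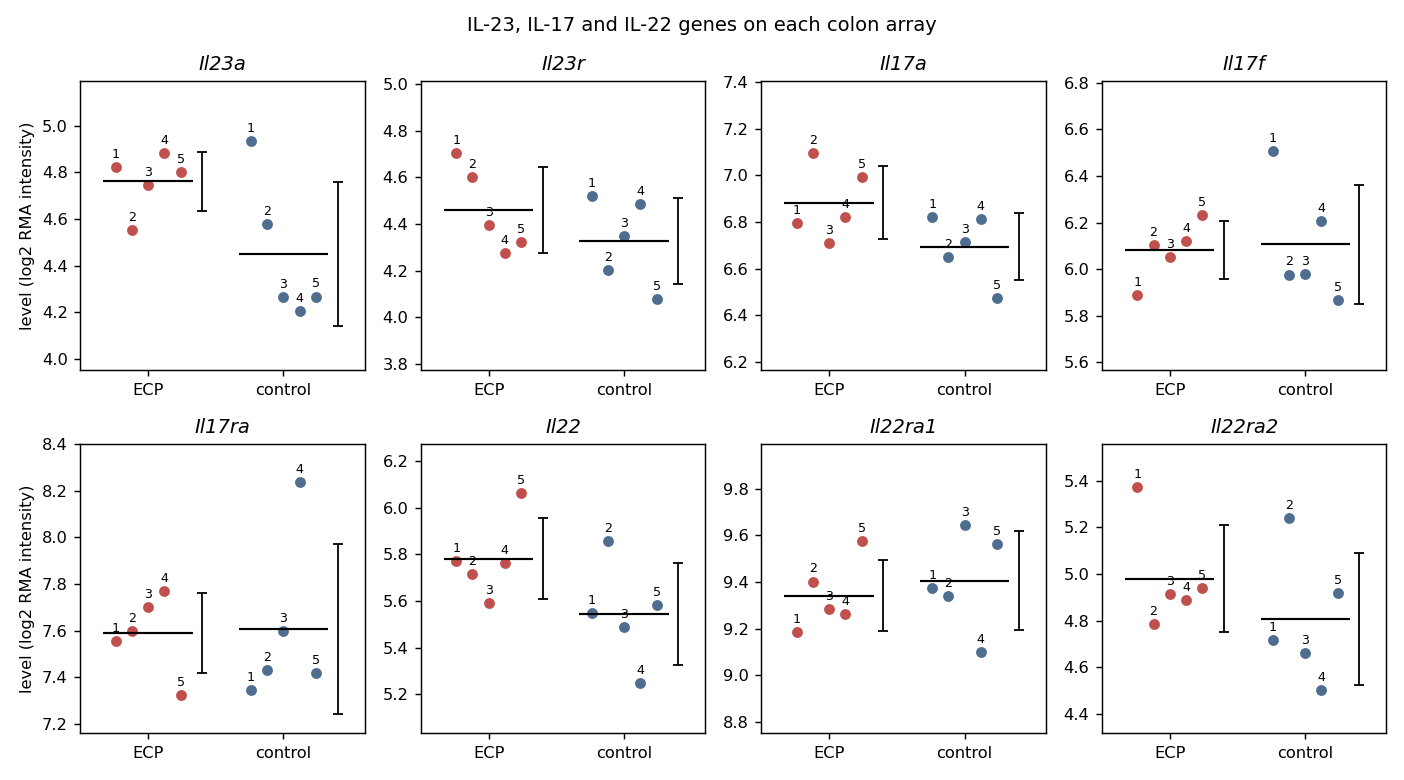
Level (log2 RMA intensity, vertical axis, the same span in each panel) of the 8 genes on each array, with ECP arrays in red on the left and control arrays in blue on the right. Points carry the replicate number, horizontal lines are group means and bars beside them mean ± SD (n = 5). The groups overlap in every panel, and control replicate 4 stands apart in Il17ra (8.24) and control replicate 1 in Il17f (6.51).

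Il22, the cytokine gene whose product acts on epithelium, was at 5.77, 5.72, 5.59, 5.76 and 6.06 in ECP replicates 1 to 5, against 5.55, 5.86, 5.49, 5.25 and 5.58 in control replicates 1 to 5. All controls except replicate 2 lay below every ECP array. The difference was 0.24 (SE 0.11), or 1.18-fold with a 95% interval of 0.991 to 1.40 (limma adjusted p = 0.996; exact permutation p = 0.0952). Leaving out control replicate 4 gave 0.16 and leaving out control replicate 2 gave 0.31, and it was 0.11 with the pancreatic acinar level as a covariate.

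The copy Iltifb was at 6.01, 5.88, 5.74, 6.15 and 6.03 in ECP replicates 1 to 5 and at 5.81, 5.69, 5.78, 5.81 and 6.10 in control replicates 1 to 5. Its difference was 0.13 (SE 0.10, limma adjusted p = 0.998), in the direction of Il22, with 4 of the 5 controls inside the ECP range. The array that was lowest in Il22, control replicate 4, was not the lowest in Iltifb. The stretch printed above, chosen as the best match, was 96.1% identical between the copies, which does not show whether their probe sets share sequence. Levels of the copies had a Pearson r of 0.35 (permutation p = 0.336) and a Spearman rho of 0.21 (permutation p = 0.562) across the 10 arrays, neither past the threshold. Once the 2 arrays farthest from the Il22 median were left out, r was 0.14.

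Il22ra1, which makes epithelial cells responsive to IL-22, was at 9.19, 9.40, 9.28, 9.26 and 9.58 in ECP replicates 1 to 5 and at 9.37, 9.34, 9.64, 9.10 and 9.56 in control replicates 1 to 5. Control replicate 3 was the highest and control replicate 4 the lowest, and the epithelial marker level was also lowest in control replicate 4. Its difference of -0.06 (SE 0.11, limma adjusted p = 0.998) kept its sign in all alternatives, being -0.14 without control replicate 4 and -0.003 without control replicate 3. It was -0.20 with the acinar level as a covariate.

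Il22ra2 codes for IL-22 binding protein, a soluble decoy receptor that neutralises IL-22 and is known to be made by dendritic cells. Levels were 5.38, 4.78, 4.91, 4.89 and 4.94 in ECP replicates 1 to 5, against 4.72, 5.24, 4.66, 4.50 and 4.92 in control replicates 1 to 5. ECP replicate 1 and control replicate 2 stood above the others, and 3 of the 5 controls lay below every ECP array. The difference was 0.17 (SE 0.14, limma adjusted p = 0.998; exact permutation p = 0.349). It was 0.07 without ECP replicate 1, 0.28 without control replicate 2 and 0.01 with the acinar level as a covariate.

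**Figure D2:**
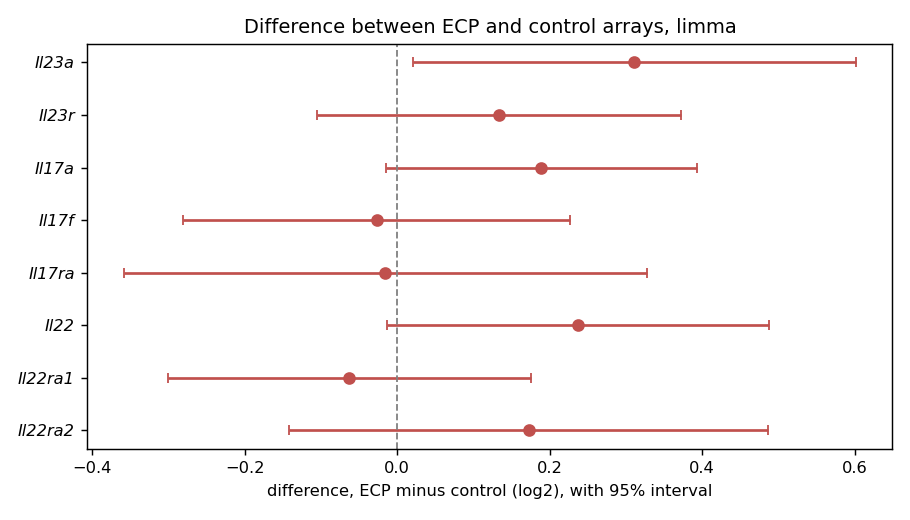
Difference between ECP and control arrays (log2, horizontal axis) for the 8 genes, with limma's 95% interval for each single gene. Of the intervals 7 include 0, and that of Il23a runs from 0.02 to 0.60, before any adjustment for the number of genes.

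The genes were next related to each other across the 10 arrays. Of 28 pairs, 0 passed an adjusted p of 0.05 by Pearson or by Spearman correlation, and 3 had an unadjusted Pearson p under 0.05. Correlations ran from -0.66 to 0.67 with 14 positive and 14 negative. The pair with the highest r was Il22 with its decoy receptor gene Il22ra2 (r = 0.67, permutation p = 0.0327, adjusted p = 0.366). By ranks it reached rho = 0.84 (permutation p = 0.00345, adjusted p = 0.0966), r was 0.75 once ECP replicate 5 and control replicate 4 (farthest from the Il22 median) were left out, and 0.62 after removal of the group means. Control replicate 4 was the lowest array for both genes, and r was 0.44 without control replicates 1 and 4.

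Il17ra ran opposite to Il22ra1 (r = -0.65, permutation p = 0.0334, adjusted p = 0.366; rho = -0.60, permutation p = 0.0729, adjusted p = 0.681) and to Il22 (r = -0.66, permutation p = 0.0436, adjusted p = 0.366; rho = -0.38, permutation p = 0.279, adjusted p = 0.749). Without the 2 arrays farthest from the Il17ra median, ECP replicate 5 and control replicate 4, these became -0.29 and 0.13. Without control replicates 1 and 4 they were -0.52 and -0.50, and without control replicate 4 alone -0.43 and -0.28. Il23r and Il17a, receptor and product of the same lymphocytes, had r = 0.62 (permutation p = 0.0523, adjusted p = 0.366; rho = 0.53, permutation p = 0.123, adjusted p = 0.714), and 0.58 without the 2 farthest arrays. Without control replicate 5 alone r was 0.40, and without ECP replicate 1 alone 0.75.

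The following pairs were picked by role after their values were seen. The neighbours Il17a and Il17f had r = 0.50 (permutation p = 0.144, adjusted p = 0.517) and rho = 0.77 (permutation p = 0.0130, adjusted p = 0.182), and r was 0.66 after removal of the group means. Without control replicate 1, the array highest in Il17f, r was 0.69, and without control replicate 5, the lowest in both genes, it was 0.33. Il23a, whose product acts upstream, had r = 0.30 with Il23r (permutation p = 0.385, adjusted p = 0.737; rho = 0.18, permutation p = 0.632, adjusted p = 0.888). With Il17a it had r = 0.38 (permutation p = 0.291, adjusted p = 0.627; rho = 0.35, permutation p = 0.329, adjusted p = 0.749), and without the 2 farthest arrays these values were 0.52 and 0.47. After removal of the group means they were 0.11 and 0.05, and without control replicate 5 alone 0.07 and 0.14. The ligand and receptor genes Il17a and Il17ra had r = 0.07 (permutation p = 0.838, adjusted p = 0.903; rho = -0.01, permutation p = 1.00, adjusted p = 1.00), or -0.13 without the 2 farthest arrays. Il22 and Il22ra1 had r = 0.28 (permutation p = 0.433, adjusted p = 0.756; rho = 0.03, permutation p = 0.948, adjusted p = 1.00), or -0.67 without the 2 farthest arrays, a change of sign.

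**Figure D3:**
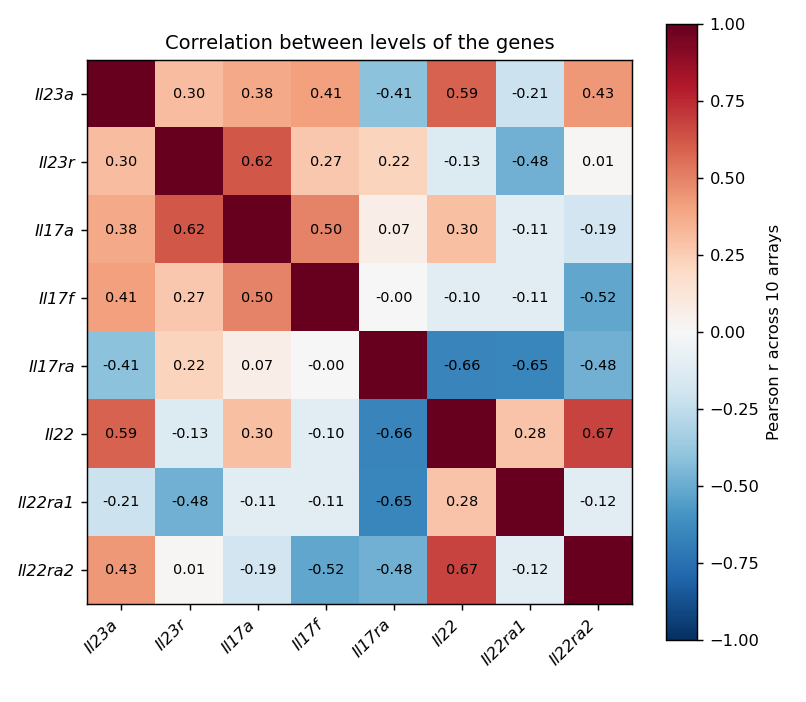
Pearson correlation across the 10 arrays between the levels of the 8 genes, coloured from -1 (blue) to 1 (red), with r printed in each cell. The strongest cells are Il22 with Il22ra2 (0.67) and Il17ra with Il22 (-0.66) and Il22ra1 (-0.65), none past the threshold after adjustment over 28 pairs.

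Over all genes, those with the highest Pearson correlation to each of the 8 across the 10 arrays were named, 2 for each. They were Tbcd (0.95) and Amigo3 (0.93) for Il23a, Mvk (0.95) and Arpin (0.93) for Il23r, Defb23 (0.91) and Cypt4 (0.89) for Il17a, and Chst7 (0.94) and Pcnx3 (0.94) for Il17f. For the others they were Trem1 (0.95) and Chsy1 (0.93) for Il17ra, Olfr101 (0.94) and Myl10 (0.93) for Il22, Olfr357 (0.95) and Tdpoz7 (0.94) for Il22ra1, and Sh3bgrl2 (0.96) and Ceacam5 (0.91) for Il22ra2. As the highest of 19505 genes these values are a description only, and none of these genes belongs to the axis or its lists.

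Each of the 8 genes was also set against the mean level of 15 lists, namely the pathway lists described below and the marker lists of cell types. Of the 120 relations, 0 passed the threshold by Pearson correlation and 13 had an unadjusted p under 0.05. The relations with the smallest p were Il17ra with the transcripts of eye, tooth and testis (r = -0.83, permutation p = 0.00551, adjusted p = 0.406), Il22ra1 with the IL-22 response genes (r = -0.77, permutation p = 0.0102, adjusted p = 0.406) and Il17f with smooth muscle markers (r = -0.75, permutation p = 0.0149, adjusted p = 0.406). By ranks the first of these was the only 1 of 120 past the threshold (rho = -0.96, adjusted p = 0.0060), while the Il22ra1 relation had rho = -0.59 (permutation p = 0.0802) and that of Il17f -0.41 (permutation p = 0.245). The level of the eye, tooth and testis list differed little between arrays, from 4.97 to 5.09 in ECP and 4.87 to 5.22 in control arrays. Once the 2 arrays farthest from the list's median were left out, r became -0.87, -0.63 and -0.14 for the relations in the same order. For Il17f these arrays were control replicates 1 and 4. Without control replicate 4 alone its r was -0.75, but over all omissions of 1 array r ran from -0.80 to -0.42. Control replicate 1 was the highest array in Il17f and the lowest in smooth muscle markers.

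Il22ra1 tended to be lower on arrays where the response genes and some leukocyte marker lists were higher, without passing the threshold. It had r = -0.72 with the IL-17 response genes (permutation p = 0.0156, adjusted p = 0.406; rho = -0.67, permutation p = 0.0395, adjusted p = 0.983), and r = 0.67 with the epithelial markers (permutation p = 0.0212, adjusted p = 0.406; rho = 0.53, permutation p = 0.122, adjusted p = 0.983). Without the 2 arrays farthest from the list median these became -0.55 and 0.21. Neutrophil markers (r = -0.66, permutation p = 0.0269, adjusted p = 0.406), B cell markers (r = -0.64, permutation p = 0.0271, adjusted p = 0.406) and markers of monocytes, macrophages and dendritic cells (r = -0.64, permutation p = 0.0441, adjusted p = 0.423), added after their values were seen, ran opposite to Il22ra1. Their rho was -0.60, -0.43 and -0.60 (permutation p = 0.0741, 0.220 and 0.0738). Without the 2 farthest arrays their r became -0.26, 0.19 and -0.21. T cell markers had r = -0.59 with Il22ra1 (permutation p = 0.0582, adjusted p = 0.443), or 0.29 without the 2 farthest arrays. Markers of gamma delta T cells, innate lymphoid cells and NK cells went the other way (r = 0.11, permutation p = 0.772, adjusted p = 0.915). Il22 had r = -0.69 with the pancreatic acinar markers (permutation p = 0.0229, adjusted p = 0.406; rho = -0.52, permutation p = 0.134, adjusted p = 0.983), or -0.31 without control replicates 1 and 4.

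Other genes of the pathway were examined through 6 lists, with 0 of their genes past the threshold in either direction. Receptor chains and signal transducers (partner chains, JAK kinases, STAT factors and TRAF adaptors) had a median difference of 0.02, 9 of 14 members being higher in the ECP arrays and 5 lower. Il10rb, the partner of IL-22RA1, was at 10.43 to 10.56 in the ECP arrays and 10.36 to 10.51 in the controls (difference 0.05, SE 0.06). Traf3ip2, which codes for the adaptor Act1 of the IL-17 receptor, differed by 0.07 (SE 0.08), Traf6, a ubiquitin ligase downstream of it, by -0.07 (SE 0.08) and the IL-12 receptor chain gene Il12rb2 by 0.09 (SE 0.09). Leaving out 1 array moved each of these by over 1.5 times, Traf6 to -0.006 without control replicate 2, Il12rb2 to 0.04 and Traf3ip2 to 0.04 without control replicate 1, and Il10rb to 0.03 without control replicate 1. Every array of both groups had a mean level of this list between 7.70 and 7.90.

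Other cytokines of the IL-12, IL-17 and IL-20 families had 5 of 10 members higher and 5 lower (median difference -0.01). Il19, a relative of IL-22 in the IL-20 family, was at 4.32, 4.23, 4.26, 4.17 and 4.28 in ECP replicates 1 to 5, against 4.33, 4.38, 4.38, 4.36 and 4.41 in control replicates 1 to 5. Every ECP array thus lay below every control array, as 0.831% of all genes did (limma adjusted p = 0.966, unadjusted p = 0.0461), with the nearest arrays at 4.32 and 4.33. The other 3 named by their p were Il12a (-0.18, SE 0.12), the partner of p40 in IL-12, Il17d (0.08, SE 0.07), a further member of the IL-17 family, and Il24 (-0.14, SE 0.14), another IL-20 family cytokine. Without control replicate 4 the differences of Il12a and Il24 were -0.05 and -0.04, and without control replicate 3 that of Il17d was 0.04.

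Inducers of IL-23 and of Th17-type lymphocytes had the largest median difference of the 6 lists, 0.38 against 0.01 over all genes, with 6 of 9 members higher and 3 lower. Ptgs2, which codes for the prostaglandin-forming cyclooxygenase COX-2, was at 8.44, 8.64, 8.41, 9.51 and 9.08 in ECP replicates 1 to 5, against 7.73, 8.12, 8.07, 8.85 and 7.55 in control replicates 1 to 5. Its groups overlapped through control replicate 4 alone (difference 0.75, SE 0.26, limma adjusted p = 0.807). Il1a, an alarmin cytokine, was at 6.51, 6.11, 6.10, 7.07 and 6.82 in ECP replicates 1 to 5 and at 5.42, 5.79, 5.45, 7.20 and 4.60 in control replicates 1 to 5, and here too control replicate 4 was the only control not below every ECP array (difference 0.83, SE 0.39, limma adjusted p = 0.988). Tnf differed by 0.50 (SE 0.28) and Csf2, a myeloid growth factor, by -0.20 (SE 0.11). The median difference of the list was 0.14 without control replicate 5 and 0.57 without control replicate 2. Il1a was at 0.56 without control replicate 5, and Tnf at 0.31 without control replicate 3 and 0.74 without control replicate 4, while Csf2 was at -0.14 without control replicate 5.

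Regulators and markers of Th17-type lymphocytes had 4 of 11 measured members higher and 7 lower (median difference -0.06). Ltb, a lymphoid tissue cytokine, differed by -0.34 (SE 0.24), the dietary ligand receptor gene Ahr by -0.09 (SE 0.07), the IL-7 receptor gene Il7r by -0.24 (SE 0.29) and the chemokine receptor gene Ccr6 by -0.22 (SE 0.31). Control replicate 4 was the highest of the 10 arrays in Ltb (7.96), Il7r (7.17) and Ccr6 (7.32), as it was in B cell and T cell markers. Without it the median of the list was 0.05, Ltb was at -0.10, Il7r at 0.04 and Ccr6 at 0.11, while Ahr was at -0.05 without control replicate 5.

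**Figure D4:**
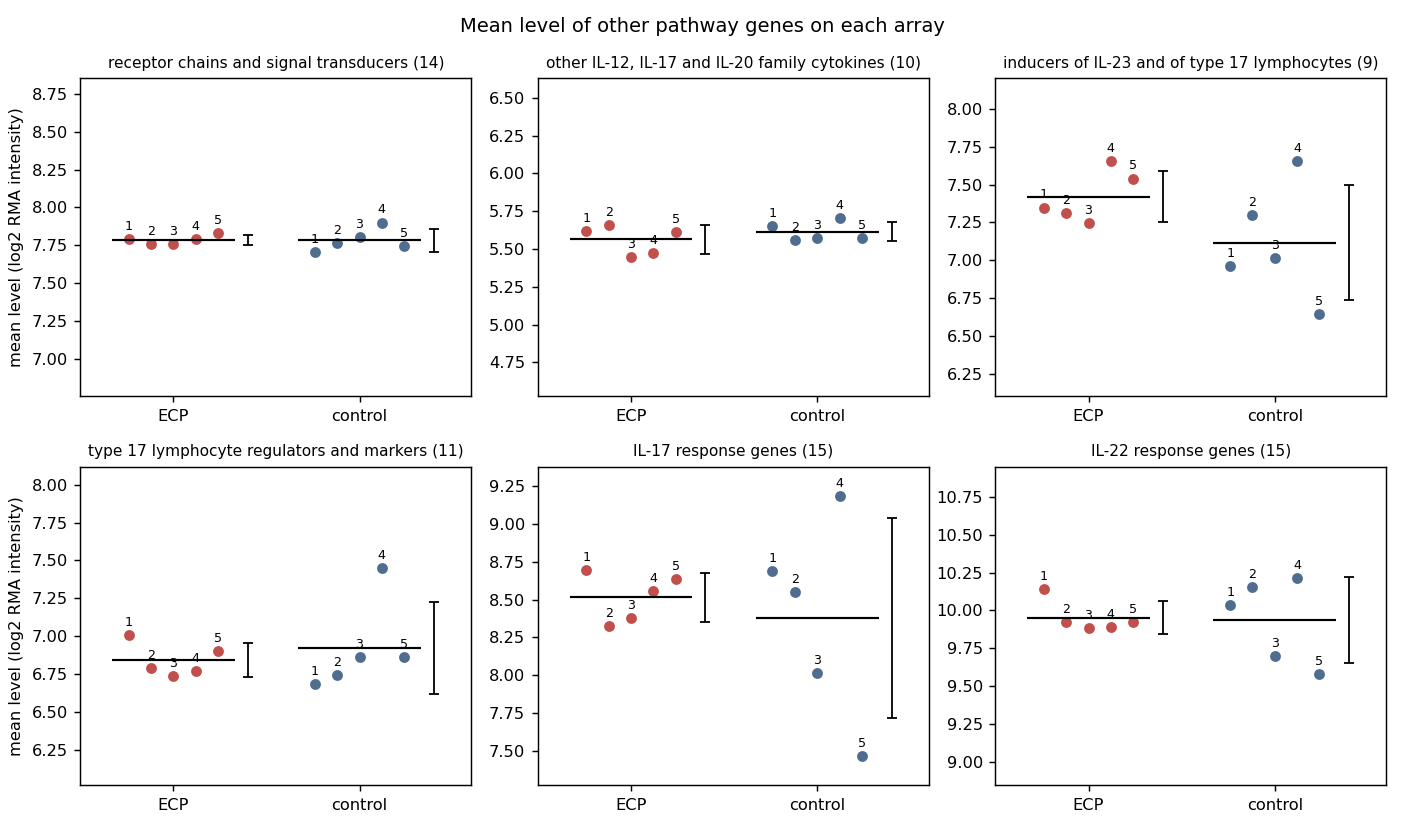
Mean level (log2 RMA intensity, vertical axis, the same span in each panel) of 6 pathway lists on each array, ECP in red on the left and control in blue on the right, with the number of measured genes in brackets. Points carry the replicate number, lines are group means and bars mean ± SD (n = 5). Control arrays are wider apart than ECP arrays in the IL-17 response list, with ECP arrays at 8.32 to 8.70 and controls at 7.46 (replicate 5) to 9.18 (replicate 4).

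IL-17 response genes, which code for chemokines, antimicrobial proteins and regulators induced by IL-17 together with other signals, spread widely over the controls. The mean level of 15 measured genes was 8.70, 8.32, 8.37, 8.55 and 8.63 in ECP replicates 1 to 5, against 8.69, 8.55, 8.01, 9.18 and 7.46 in control replicates 1 to 5. Control replicate 4 was the highest of the 10 arrays for 8 of the 15 genes and control replicate 1 for 3, while control replicate 5 was the lowest for 12. The ECP mean was the higher for 11 of the 15 genes and the lower for 4 (median difference 0.09), with 0 at an unadjusted p under 0.05. Without control replicates 1 and 4, the arrays with the highest pancreatic acinar levels, 15 of 15 lay higher in the ECP arrays. The median difference was then 0.45, and 49.4% of all genes lay higher. With limma 0 of the 15 passed the threshold (smallest adjusted p = 0.574) and 6 had an unadjusted p under 0.05, which 1288 of all 19505 genes reached in that fit. This choice removes arrays highest for many of the 15 genes and keeps the lowest, so it favours higher ECP differences by itself. The genes share the same arrays, so 15 of 15 is not 15 separate observations. Without control replicate 5 alone, 7 of 15 lay higher in the ECP arrays and the median was -0.03.

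Among these genes, the chemokine gene Cxcl2 was at 8.05, 7.48, 7.41, 8.70 and 8.47 in ECP replicates 1 to 5 and at 7.55, 7.19, 7.36, 9.17 and 5.62 in control replicates 1 to 5. Its span over the controls was wider than the group difference of 0.64 (SE 0.51, limma adjusted p = 0.998), which was 0.20 without control replicate 5 and 1.09 without control replicate 4. The ligand of CCR6, Ccl20, differed by 0.18 (SE 0.12), the metalloreductase gene Steap4 by 0.26 (SE 0.23) and the chemokine gene Cxcl3 by 0.20 (SE 0.21). Without control replicate 5 Steap4 was at 0.03 and Cxcl3 at 0.08, and without ECP replicate 1 Ccl20 was at 0.06. Neutrophil markers, whose cells also contain S100a8 and S100a9 transcripts of this list, had the same extremes among the controls (6.15 to 6.60 in the ECP arrays, against 7.51 in control replicate 4 and a low of 5.76 in control replicate 5), and their part in the list was not tested.

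**Figure D5:**
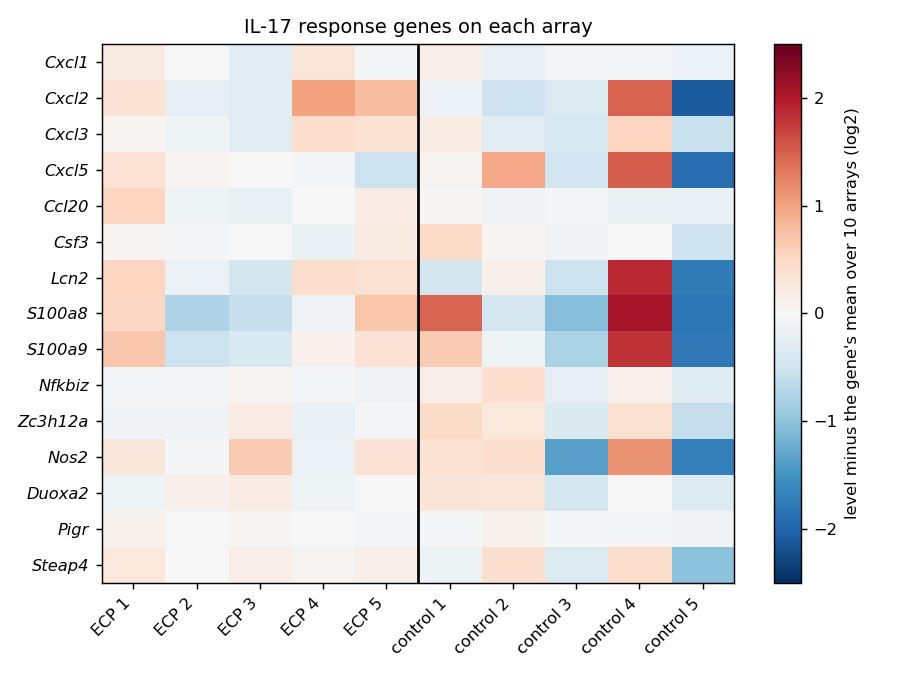
Level of 15 IL-17 response genes on each array, given as the log2 difference from the gene's mean over all 10 arrays, from blue (lower) to red (higher), with ECP arrays left of the black line and control arrays right of it. Control replicate 5 is blue in most rows, being the lowest array for 12 of 15 genes, and control replicate 4 is the reddest in Lcn2, S100a8 and S100a9.

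IL-22 response genes, which code for antimicrobial lectins, acute phase proteins and feedback regulators, had a median difference of 0.00, 8 of 15 members being higher in the ECP arrays and 7 lower. Reg3g, an antimicrobial lectin gene, was at 12.00, 11.82, 11.90, 11.86 and 12.56 in ECP replicates 1 to 5, against 11.95, 11.71, 10.35, 11.97 and 11.16 in control replicates 1 to 5. Control replicates 3 and 5 were the low arrays, and the other controls lay near the ECP arrays (difference 0.60, SE 0.28, limma adjusted p = 0.989). Leaving out control replicate 3 gave 0.33. Its relative Reg3b differed by 0.35 (SE 0.17), or 0.19 without control replicate 3, Bcl3, a regulator of NF-κB, by -0.30 (SE 0.17), or -0.18 without ECP replicate 5, and the acute phase gene Saa1 by 0.15 (SE 0.09). The level of the list had no relation to that of Il22 past the threshold (r = 0.01, permutation p = 0.983, adjusted p = 0.991; rho = 0.18, permutation p = 0.632, adjusted p = 0.983), with r = 0.41 once control replicates 4 and 5 were left out.

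Markers of the labelled tissue were present on all arrays, with epithelial markers at 12.1 to 12.2 in the ECP and 11.9 to 12.2 in the control arrays and smooth muscle markers at 10.1 to 10.7 and 9.55 to 10.4 in the same order. Pancreatic acinar markers (7 of 8 measured) were at 5.43 to 5.66 in the ECP arrays, against 11.0, 5.73, 5.56, 12.7 and 6.79 in control replicates 1 to 5. Markers of gamma delta T cells, innate lymphoid cells and NK cells were at 5.49 to 5.94 in the ECP and 5.47 to 5.77 in the control arrays (6 of 9 measured, all 6 higher in the ECP arrays and none past the threshold). Gamma delta T cells and innate lymphoid cells are among the known sources of IL-17 and IL-22. The gamma delta T cell receptor genes Trdc and Tcrg-C1 were not measured, nor was Gata3. The level of this list therefore rests on Cd163l1, Ncr1, Tbx21, Eomes, Klrb1b and Cxcr6. As these include NK cell markers, it is not a measure of cells that make IL-17 or IL-22. T cell markers were at 6.13 to 6.58 in the ECP and 6.04 to 7.35 in the control arrays (8 of 9 measured, 1 higher and 7 lower in the ECP arrays, none past the threshold). Leaving out control replicates 1 and 4 together left 0 of the 8 axis genes called with limma (smallest adjusted p = 0.50), with differences of 0.39 for Il23a, 0.25 for Il23r, 0.27 for Il17a, 0.14 for Il17f, 0.11 for Il17ra, 0.14 for Il22, -0.17 for Il22ra1 and 0.04 for Il22ra2.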

How the data were processed

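Per the submitters' processing notes, the authors used oligo and RMA. The deposited values are log2 intensities, 1 per probe set and array, and versions, options and detection calls were not given in the sources used here. The table held 22203 probe sets with values of 2.81 to 13.6 and array medians of 6.94 to 6.98. RMA brings arrays to like distributions, so a shift common to all genes would not show. Symbols of 19572 probe sets came from the platform annotation, and the probe set with the highest mean was kept for each of 19505 genes.

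Groups and replicate numbers came from the sample titles. Genes were compared with limma 3.58.1 in R 4.3.3 (lmFit and eBayes, two-sided, no filter), adjusted by Benjamini-Hochberg over all genes at a threshold of 0.05. The fit was tried on simulated data with independent genes, a capped SD and shifts larger than the axis differences. That trial therefore does not show how the fit performs on arrays like these. Correlations used 100000 permutations. Leave-one-out and group-centred values used exact permutation. As Il12b was not analysed, 28 pairs were related. List levels are means over the measured genes' log2 values. The members and lists were chosen with earlier results of these data known. Named in each pathway list were the 4 genes with the smallest p, for each member the 2 genes most correlated with it, and among correlations the 4 pairs and up to 6 list relations with the smallest p. The p-values measure only the spread between these samples, which may be technical, and the number of arrays limits precision. Of the 8 genes, 5 had a mean level above the lowest 25% of all genes.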

Additional observations from a re-analysis of the deposited data

Results flagged for a closer look

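In a group of 5 arrays an array was marked when its gap to the nearest other array exceeded 0.71 of the group's range. Of 96 groups of 5 that were examined, 13 held such an array, and chance marks about 1 in 20. Control replicate 4 accounted for 5 of the 13. It was high in Il17ra (8.238, next 7.599), the Th17-type lymphocyte list (7.448, next 6.864), T cell markers (7.347, next 6.256), B cell markers (8.565, next 6.279) and Il12a (4.899, next 4.320). ECP replicate 1 accounted for 4, being high in Il22ra2 (5.375, next 4.941), the IL-22 response list (10.14, next 9.925) and Ccr6 (6.315, next 5.688), and low in epithelial markers (12.079, next 12.156). ECP replicate 5 was high in the transcripts of eye, tooth and testis (5.091, next 4.983) and in Reg3g (12.562, next 12.005). Control replicate 2 was high in Traf6 (8.881, next 8.615) and ECP replicate 2 in Il17d (7.688, next 7.555).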

How the results depend on the processing

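None of the 8 axis genes was called under any of the 20 alternatives run. Over all genes, 1 was called with the lowest 25% of genes left out or with trend and robust options (Ccna2 in both), and leaving out 1 array gave 0 to 1 (Cenpf without control replicate 3). Il23a, Il23r, Il17a, Il22, Il22ra1 and Il22ra2 kept their direction wherever they were tested. Il17f turned to 0.0638 with array weights, 0.14 with the acinar level as a covariate, 0.14 without control replicates 1 and 4 and 0.10 without control replicates 1, 4 and 5, an alternative added after seeing the data, and ranged from -0.0874 to 0.0728 when 1 array was left out. Il17ra turned to 0.0811, 0.169, 0.108 and 0.0752 in the same order, and ranged from -0.0811 to 0.142. The cause was not tested. With a replicate block 0 genes and 0 of the 8 were called (886 genes at an unadjusted p under 0.05, against 991), and the deviations of same-numbered arrays had correlations of -0.24 to 0.08, with 1 of 10 arrays closest to its own number, so the numbers were not taken as pairs. Among correlations, 0 of 28 pairs were called under any alternative run for them. Leaving out the lowest 25% of genes removed Il23a, Il23r and Il22ra2, so low signal limits what can be said of these 3. The mean levels of Il17a, Il17f and Il22 also lay in the span of the transcripts of eye, tooth and testis. Whether these genes were above background was not tested.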
